A study of Mus musculus with 2 samples.

Results

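The smooth muscle contractile programme was read from 10 genes (Acta2, Actg2, Myh11, Myl9, Mylk, Tagln, Cnn1, Smtn, Lmod1 and Des) in the stroma of intestinal grafts. They were chosen by symbol as established genes of the contractile apparatus, with earlier results of these data known, and each matched 1 of the 28692 features of the count matrices. All 10 had a UMI (unique molecular identifier, 1 counted RNA molecule) in the cells used of both libraries. The grafts were pieces of embryonic mouse intestine from matings of EYFP males with C57BL/6Nrj females, and the strain is labelled EYFP (C57BL/6). They were placed under the kidney capsule of adult WT recipients for 4 weeks. Both groups carried the EYFP reporter and were sorted in the same way for live YFP+ Itgb1+ cells that were negative for CD45, Ter119, BP3, CD31, EpCAM and L1CAM, so graft-derived mesenchyme without blood, endothelial, epithelial and glial cells was sought. One library came from large intestine (LI graft) and 1 from small intestine (SI graft). The LI library pooled 3 colonic grafts, and the number behind the SI library is not given in the sources used here. With 1 library per group there was no replicate and no test between grafts: the 95% intervals below are exact Poisson or binomial intervals that cover counting error only.

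Smooth muscle cells shorten when calcium and calmodulin activate myosin light chain kinase, which phosphorylates the regulatory light chain and lets smooth muscle myosin pull on actin filaments. Calponin, transgelin, smoothelin and leiomodin bind or build these actin filaments, and desmin filaments tie the dense bodies together. In the gut wall the visceral muscle layers carry the whole set, the mural cells of blood vessels (pericytes and vascular smooth muscle) carry part or all of it, and some fibroblasts, often called myofibroblasts, carry a part. Interstitial cells of Cajal (ICC) are the pacemaker cells that lie between the muscle layers.

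The genes lie on 7 chromosomes of GRCm38, and all are protein coding. Acta2 (alpha smooth muscle actin) lies at chr19:34241090-34255590 on the minus strand, Actg2 (gamma enteric actin) at chr6:83512905-83536265 (minus), and Myh11 (smooth muscle myosin heavy chain) at chr16:14194535-14291372 (minus). Mylk (myosin light chain kinase) lies on the same chromosome as Myh11, at chr16:34745210-35002420 (plus), and Myl9 (regulatory light chain) at chr2:156775420-156781658 (plus). Tagln (transgelin) at chr9:45929619-45936058 (minus) and Cnn1 (calponin 1) at chr9:22099216-22109630 (plus) share a chromosome, as do Des (desmin) at chr1:75360329-75368579 (plus) and Lmod1 (leiomodin 1) at chr1:135324807-135368065 (plus). Smtn (smoothelin) lies at chr11:3517523-3540612 (minus). The Mylk locus also encodes telokin, a short product that gene counts do not separate from the kinase, and the actin genes have near-identical coding sequences, so some of their reads may be shared or lost. Tagln shares 108 exon bases with Pcsk7 and Des shares 220 with the antisense gene Gm15179, both on the opposite strand.

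Serum response factor, with its cofactor myocardin, binds the CArG box that is known from smooth muscle promoters. RefSeq promoter windows of GRCm38.p6 were at hand for 7 of the 10 genes (all but Myh11, Actg2 and Tagln), and the 250 bases before the start were searched on both strands. An exact CArG box was found in 1 of these 7 (Myl9), against 482 of 32851 windows of all genes (1.47%). With up to 1 mismatch the box was found in 3 of 7, against 18.6% of all windows. The 6 matches, 2 each in Acta2, Lmod1 and Myl9, are printed 5′ to 3′ on the strand of the gene with 10 bases on each side and the box in capitals, because these are the promoters whose levels across cell classes follow. The start is that of RefSeq, and both Acta2 matches lie inside the Acta2 span given above, in a first exon of a longer transcript in the GENCODE annotation. A match is a run of letters and not a measured binding site.
Acta2, chr19:34255438-34255467, minus strand: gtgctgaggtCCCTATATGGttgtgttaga
Acta2, chr19:34255388-34255417, minus strand: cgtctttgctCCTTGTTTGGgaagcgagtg
Lmod1, chr1:135324614-135324643, plus strand: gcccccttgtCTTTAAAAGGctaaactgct
Lmod1, chr1:135324639-135324668, plus strand: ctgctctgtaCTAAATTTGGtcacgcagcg
Myl9, chr2:156775293-156775322, plus strand: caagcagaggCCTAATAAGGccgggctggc
Myl9, chr2:156775355-156775384, plus strand: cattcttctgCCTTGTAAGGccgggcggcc

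The LI graft gave 8882 cells used of 11568 barcodes and the SI graft 7259 of 9631, after cells under 500 genes or over 10% mitochondrial UMIs and likely doublets were left out. Median depth was 5146 and 5547 UMIs per cell, and 26 barcodes occurred in both libraries. Classes were named from markers other than the 10 genes, which were kept out of the genes used for clustering. In the LI and SI graft these were fibroblasts (FB, 6930 and 5080 cells), mural cells (609 and 1220), visceral smooth muscle cells (SMC, 377 and 408) and ICC (400 and 32). All 11 mural markers reached 10 CPM (UMIs of a gene per 1e6 UMIs of the class) in mural cells, and 9 of 10 SMC markers did so in SMC of both grafts. The summed SMC markers stood at 1781 and 2074 CPM in SMC and at 424 and 438 CPM in mural cells. Fibroblast markers were not absent from SMC (18827 and 16002 CPM, against 42143 and 53311 in FB), and their part in the values below was not tested. A few immune cells (42 and 20) and, in the SI graft, 46 epithelial cells were left after the sort, and these give the background, since they should lack the contractile genes.

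The contractile genes ran over a wide range of pooled levels across the stroma. Together they made up 3.31% of all UMIs of SMC in the LI and 4.94% in the SI graft. Mural cells split into a cluster of vascular muscle (89 and 492 cells, named from vascular smooth muscle markers) at 3.50% and 2.33%, and the other mural cells, with pericyte markers, at 0.647% and 1.01%. PDGFRAhi FB, the fibroblasts with the highest Pdgfra that lie along the epithelium, held 0.354% and 0.685%. All FB held 0.191% and 0.206% and ICC 0.222% and 0.241%. A minority of cells carried the pooled FB value: the median FB held 0.0530% and 0.0733%, and the 90th percentile was 0.434% and 0.559%. Immune cells held 0.0589% and 0.0472% and epithelial cells 0.0219%. Pooled FB and pooled ICC thus stood above both, and below every mural and muscle class. Some LI fibroblast clusters, given below, lay under the immune cells. These levels depended on which cells were named: SI ICC held 1.27% with a stricter cell filter, 0.968% at resolution 1.6 and 0.633% with each cell assigned by marker score, which also took SMC to 1.18% and 2.55%.

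Cell by cell, SMC and vascular muscle stood highest as well, but the lower classes were not all told apart. To compare cells of unequal depth, each was thinned to 2000 UMIs, which 252 of 6930 LI FB and 204 of 5080 SI FB did not reach. At least 5 of the 10 genes were detected in 93.5% of LI SMC and 93.6% of SI SMC. In vascular muscle the share was 98.8% and 84.0%, in other mural cells 29.5% and 42.6%, and in PDGFRAhi FB 8.69% and 26.6%. It was 4.15% (95% interval 3.68 to 4.65) and 7.20% (6.49 to 7.96) of all FB and 4.4% and 3.57% of ICC. Of the immune cells deep enough, 1 of 26 in the LI and 0 of 16 in the SI graft reached 5 genes, and the intervals of these shares (0.0973% to 19.6% and up to 20.6%) include the shares of FB and ICC. In 36.0% and 28.0% of thinned FB none of the 10 genes was detected. The 78.0% of LI cells that were FB held 46.5% of all UMIs of the 10 genes, whereas SMC held 33.2% with 4.24% of the cells. In the SI graft FB were 70.0% of cells and held 22.4%, and SMC were 5.62% of cells and held 42.1%.

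**Figure D1:**
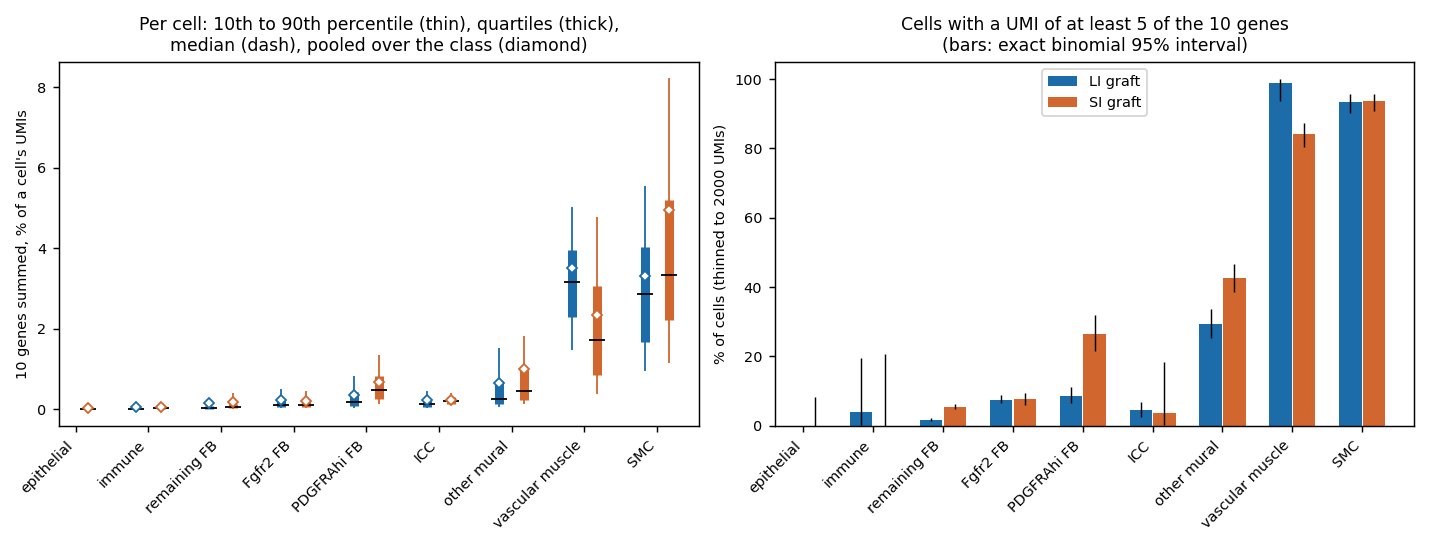
Left, share of each cell's UMIs (percent) from the 10 contractile genes, with the 10th to 90th percentile as a thin line, the quartiles as a thick bar, the median as a dash and the pooled class as a diamond; right, percent of cells thinned to 2000 UMIs with at least 5 of the 10 genes, with exact binomial 95% intervals. SMC and vascular muscle sat highest in both panels, other mural cells and PDGFRAhi FB lay between, and ICC, the other fibroblasts, immune and epithelial cells lay lowest. An exception on the right was the LI share of PDGFRAhi FB (8.69%, 6.61 to 11.2). Its interval overlapped that of Fgfr2 FB (7.53%, 6.41 to 8.77).

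Among the actins, Acta2 was the more widely spread. It stood at 9767 CPM in LI SMC and 12942 CPM in SI SMC, and at 12829 and 7690 CPM in vascular muscle. Other mural cells held 2190 and 3946 CPM, PDGFRAhi FB 1157 and 2347 CPM, all FB 472 and 591 CPM, and ICC 323 and 317 CPM. Immune cells stood at 113 and 154 CPM and epithelial cells at 18.4 CPM, and counting intervals of ICC and immune cells overlapped in the SI graft (232 to 425 against 91.5 to 244 CPM). In thinned cells an Acta2 UMI was found in 98.6% and 98.2% of SMC, 53.9% and 76.6% of PDGFRAhi FB, 25.2% and 30.4% of FB, and 18.1% and 21.4% of ICC. The share was 11.5% (2.45 to 30.2) and 6.25% (0.158 to 30.2) in immune cells and 4.76% (0.582 to 16.2) in epithelial cells. The ICC shares and the LI FB share thus could not be told from the immune cells at this depth. The SI FB share (30.4%) lay close to the upper limit of 30.2%. The median depths behind these shares before thinning were 5524 and 5826 UMIs in FB, 2482 and 3604 in immune cells and 10954 in epithelial cells. Unthinned, FB with an Acta2 UMI were 38.7% and 46.1%.

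Actg2, the actin of visceral muscle, was far more restricted. It stood at 2595 and 5848 CPM in SMC, at 494 and 362 CPM in vascular muscle, and at 92.5 and 329 CPM in other mural cells. ICC held 147 and 155 CPM, against 47.8 and 59.3 CPM in FB, and immune cells 16.7 and 8.58 CPM. The LI value came from 1 of 2 ICC clusters (265 CPM), since the cluster led by Kit held 45.9 CPM, and the LI direction turned in 3 alternatives. PDGFRAhi FB (58.7 and 64.6 CPM) were close to other FB (46.9 and 59.0 CPM), unlike for Acta2. The log2 difference was 0.32 (0.11 to 0.53) in the LI and 0.13 (-0.15 to 0.40) in the SI graft. An Actg2 UMI was found in 78.4% and 83.1% of thinned SMC and in 5.81% and 6.91% of FB.

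The myosin genes followed both patterns. Myh11, the motor, stood at 1947 and 2346 CPM in SMC and at 2094 and 1623 CPM in vascular muscle, and in the LI graft the counting intervals of these classes overlapped. It stood at 301 and 322 CPM in other mural cells and at 66.7 and 122 CPM in PDGFRAhi FB. All FB held 27.8 and 52.7 CPM, ICC 31.6 and 28.2 CPM, and immune cells 25.1 (9.20 to 54.6) and 25.7 (5.31 to 75.2) CPM. The immune values rest on 6 and 3 UMIs, and their intervals include the levels of FB and ICC. The SI epithelial cells stood lower, at 1.84 CPM (0.0466 to 10.2) from 1 UMI, so that the SI levels of FB lay above 1 of the 2 backgrounds.

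The light chain Myl9 and its kinase Mylk stood higher in PDGFRAhi FB and in ICC than in all FB of both grafts. Myl9 stood at 3893 and 5326 CPM in SMC, 968 and 1294 CPM in other mural cells, 566 and 1110 CPM in PDGFRAhi FB, 573 and 832 CPM in ICC and 205 and 308 CPM in FB. Mylk stood at 2052 and 3520 CPM in SMC, 404 and 497 CPM in other mural cells, 408 and 591 CPM in PDGFRAhi FB, 379 and 628 CPM in ICC and 146 and 246 CPM in FB. Hence the Mylk intervals of ICC, PDGFRAhi FB and other mural cells overlapped in the LI graft. In SI epithelial cells Mylk stood at 147 CPM (117 to 183), where the other 9 genes were at 18.4 CPM or less. In thinned cells Myl9 was found in 59.8% and 75% of ICC, against 11.5% and 18.8% of immune cells.

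Among the actin-binding genes, Cnn1 had the widest difference between SMC and FB. Tagln, an early gene of the smooth muscle lineage, stood at 10043 and 12905 CPM in SMC, 12291 and 7663 CPM in vascular muscle, 1672 and 2544 CPM in other mural cells and 1155 and 2372 CPM in PDGFRAhi FB. FB held 913 CPM in the LI and 666 CPM in the SI graft, although the share of thinned FB with a Tagln UMI was 32.7% and 32.2%. Cnn1, which binds actin and slows the myosin cycle, stood at 1247 and 2416 CPM in SMC, at 432 and 164 CPM in vascular muscle and at 15.4 and 27.6 CPM in other mural cells. All FB held 12 and 18 CPM of Cnn1, and PDGFRAhi FB 6.49 (4.07 to 9.82) and 3.34 (1.23 to 7.27) CPM. A Cnn1 UMI was found in 65.6% and 72.3% of thinned SMC, and in 1.26% and 0.690% of thinned PDGFRAhi FB, where 0 of 26 and 0 of 16 immune cells held one (exact upper limits 13.2% and 20.6%). At this depth Cnn1 in PDGFRAhi FB could not be told from the immune cells. The 46 SI epithelial cells held 0 Cnn1 UMIs, with an exact upper limit of 6.79 CPM, under the 18 CPM of SI FB.

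Lmod1, which nucleates actin filaments, behaved like Myh11 in muscle. It stood at 625 and 584 CPM in SMC, 596 and 453 CPM in vascular muscle, 104 and 128 CPM in other mural cells and 11.8 and 16.7 CPM in FB. Immune cells held 16.7 and 8.58 CPM of Lmod1 and SI epithelial cells 1.84 CPM. The LI levels of FB and ICC (11.8 CPM each) thus did not stand above the immune cells. Smtn, an actin-binding protein of contractile smooth muscle, had the flattest profile of the 10. It stood at 163 and 328 CPM in SMC, 118 and 74.6 CPM in vascular muscle, 29.9 and 35.5 CPM in other mural cells and 30.3 and 32.8 CPM in FB, so that Smtn in mural cells outside the vascular muscle cluster did not differ from FB beyond counting error.

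Des differed from the other genes in its share of positive cells. The intermediate filament gene stood at 1229 and 1326 CPM in vascular muscle and at 692 and 974 CPM in other mural cells. In SMC it stood at 804 CPM in the LI and 3208 CPM in the SI graft. FB held 49.8 and 67.2 CPM, LI ICC 54.7 CPM and the 32 SI ICC 197 CPM (131 to 285). By share of thinned cells, Des was detected in 83.5% and 90.1% of vascular muscle, 65.5% and 79.3% of other mural cells and only 36.1% (31.1 to 41.3) and 60.8% (55.7 to 65.6) of SMC. Other mural cells thus held Des more often than SMC in both grafts, while every other gene of the programme was detected more often in SMC than in other mural cells.

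**Figure D2:**
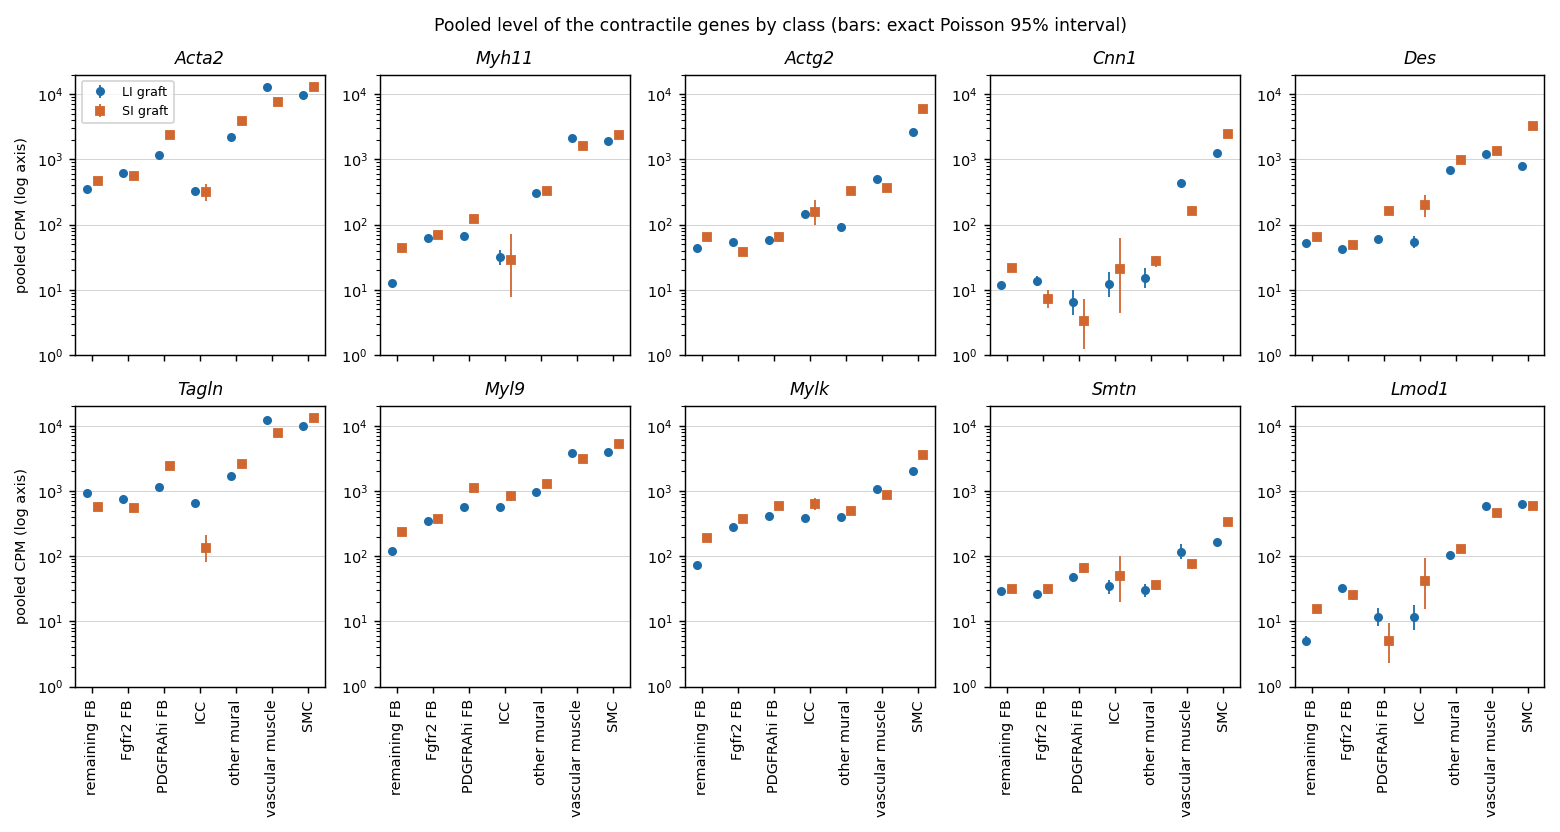
Level of each of the 10 contractile genes (CPM, log scale) in each cell class of the LI and SI graft, with 95% Poisson intervals for counting error. Acta2 and Tagln stayed above 1000 CPM from SMC through other mural cells to PDGFRAhi FB, whereas Cnn1 stood at 1247 and 2416 CPM in SMC and at 27.6 CPM or less in other mural cells and fibroblasts.

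Compared with FB, all 10 genes were higher in SMC by at least 1 on the log2 scale of CPM plus 1, in both grafts. Over all genes at 10 CPM or more in either class, 6.37% (LI graft) and 6.49% (SI graft) were that much higher. The median of the 10 was 4.30 and 4.75, against 0.06 and 0.03 over all genes. Cnn1 had the widest difference (6.59, 95% interval 6.57 to 6.84, in the LI and 6.99, 6.95 to 7.20, in the SI graft). Myh11 (6.08 and 5.45), Actg2 (5.73 and 6.60) and Lmod1 (5.61 and 5.05) came next in the LI graft. Smtn was narrowest in both (2.40 and 3.28), followed in the LI graft by Tagln (3.46) and in the SI graft by Mylk (3.83). SMC were named without these genes, yet Cnn1, Actg2, Myh11, Lmod1, Acta2 and Myl9 were also among the genes that led the SMC clusters, so the differences describe these clusters and are no test of them.

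In the mural class as a whole, 9 of 10 genes were at least 1 log2 higher than in FB in either graft, against 10.8% (LI) and 10.0% (SI) of all genes. Smtn was the exception (0.58 and 0.61). Myh11 (4.44 and 3.95), Des (3.96 and 4.03) and Lmod1 (3.93 and 3.85) had the widest differences, and Acta2 was higher by 3.12 and 3.19. Outside the vascular muscle cluster, 6 genes in the LI and 8 in the SI graft were at least 1 log2 above FB (10.4% and 9.23% of all genes). Cnn1 (0.34 and 0.59) and Smtn (-0.01 and 0.11) were not, nor were Actg2 (0.94) and Tagln (0.87) in the LI graft. Endothelial markers, which could come with vessels, summed to 113 and 44.5 CPM in mural cells, against 7.84 and 4.27 CPM in FB and 10.8 and 3.56 CPM in SMC.

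The vascular muscle of the LI graft depended on the clustering: it held 89 cells as reported, 182 at resolution 1.6, and was not separated at resolution 0.4, with the looser cell filter or without doublet removal. Within the mural class, vascular muscle stood above the other mural cells by at least 1 log2 for 9 genes in the LI graft, where 7.42% of all genes did, and for 6 in the SI graft, where 5.42% did. Cnn1 had the widest difference in both (4.72 and 2.53), with Myh11 at 2.80 and 2.33 and Lmod1 at 2.50 and 1.82, and Des had the narrowest in the LI graft (0.83; SI 0.44). Actg2 was 2.41 higher in the LI and 0.13 (0.01 to 0.26) in the SI graft. The SI other mural cells included 153 cells led by Ubd, Ccl5 and Cxcl9, genes of the interferon response, whose contractile genes summed to 13549 CPM against 8217 CPM in the rest. In that cluster Actg2 (1.06) and Myh11 (1.01) were at least 1 log2 higher than in the rest, where 4.08% of all genes were, and Acta2 was 0.98 higher. Its cells were deeper (median 8401 UMIs, against 3585), and the part of depth in this difference was not tested.

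Compared with mural cells as a whole, SMC were at least 1 log2 higher for 9 genes in the LI (9.64% of all genes) and 10 in the SI graft (9.26%). The exception was Des in the LI graft (0.03, -0.07 to 0.12). Actg2 (3.97 and 4.09) and Cnn1 (3.76 and 4.89) were the most unequal. Against vascular muscle alone the picture narrowed to 2 of the 10 genes in the LI graft, Actg2 (2.39) and Cnn1 (1.53). That count was near the share of all genes at least 1 log2 higher there (17.8%). In the SI graft 5 genes were, with 10.5% of all genes: Actg2 (4.01), Cnn1 (3.88), Smtn (2.12), Mylk (2.0) and Des (1.27). Actg2 and Cnn1 were thus the genes with the widest differences between visceral and vascular muscle in both grafts, while Myl9 (0.02 and 0.78) and Lmod1 (0.07 and 0.37) differed by less than 1 log2 in both.

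The make-up of the programme differed between classes as well as its amount. Shares of the summed UMIs of the 10 genes are given, since gene lengths and capture make levels of different genes unequal, but each share can be set beside the same share in another class. Actg2 made up 7.83% and 11.8% of the contractile UMIs of SMC and 6.63% and 6.45% of those of ICC. It was 1.41% and 1.55% in vascular muscle, and 1.66% and 0.944% in PDGFRAhi FB. Cnn1 made up 3.76% and 4.89% in SMC, 1.24% and 0.701% in vascular muscle, and 0.183% and 0.0488% in PDGFRAhi FB. Des made up 10.7% and 9.64% in other mural cells, 3.51% and 5.68% in vascular muscle, and 2.43% and 6.49% in SMC. Visceral muscle was thus the class with the highest shares of Actg2 and Cnn1, with ICC next for Actg2. By cluster, Actg2 was 265 of 2595 CPM in the LI ICC led by Lcn2 and 2267 of 34872 CPM in the SI SMC led by Npnt. The order of ICC and SMC for Actg2 thus depended on the cluster. Other mural cells had the highest share of Des among the mural and muscle classes. In ICC, Myl9 made up 25.8% and 34.6% and Mylk 17.0% and 26.1%, whereas Acta2 was down to 14.5% and 13.2%, from 24.6% and 28.7% in FB. In LI fibroblasts outside the PDGFRAhi and Fgfr2 subsets, Tagln alone was 57.3%, against 33.3% in the fibroblasts left over in the same way in the SI graft, which were other clusters.

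**Figure D3:**
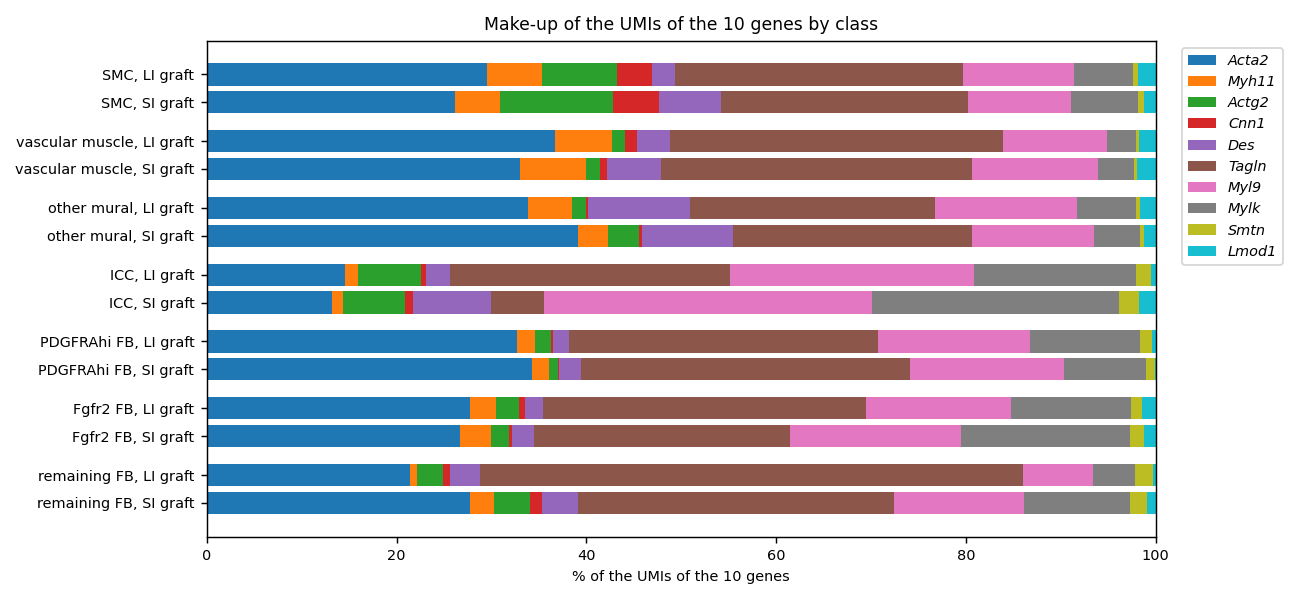
Share (percent) of the summed UMIs of the 10 contractile genes that each gene made up, by cell class and graft. Acta2 and Tagln were the widest parts in SMC and mural cells. Actg2 was wide in SMC (7.83% and 11.8%) and ICC (6.63% and 6.45%), Des in other mural cells (10.7% and 9.64%), and Myl9 and Mylk in ICC.

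In ICC, 3 genes in the LI and 5 in the SI graft were at least 1 log2 above FB, against 9.97% and 23.9% of all genes. Actg2 (1.6 and 1.37), Myl9 (1.48 and 1.43) and Mylk (1.37 and 1.35) were so in both. Acta2 stood at -0.55 (-0.67 to -0.43) and -0.90 (-1.35 to -0.48) relative to FB, and Tagln at -0.47 and -2.31. These directions depended on which cells were named ICC: over the alternatives Acta2 ran from -0.76 to 0.84 in the LI and from -1.48 to 2.70 in the SI graft, and Tagln from -2.11 to 0.15 and from -2.59 to 2.35. Des (1.54) and Lmod1 (1.29, -0.11 to 2.47) completed the SI count, from 28 and 6 UMIs. The SI class was a single cluster of 32 cells, and its count was 10 with a stricter cell filter, where the 27 cells so named held the 10 genes at a summed 12655 CPM. The LI class joined 2 clusters. Of these, 260 cells were led by Kit, the receptor that defines ICC, and 140 by Lcn2 and Hand1. Actg2 stood at 45.9 CPM in the Kit cluster and 265 CPM in the other (2.51 higher), and Tagln at 217 and 1168 CPM (2.42 higher), where 8.69% of all genes were at least 1 log2 higher, while Mylk stood at 527 and 207 CPM (1.34 lower). In the Kit cluster alone Actg2 was no higher than in FB (-0.06, -0.51 to 0.36), and Myl9 (1.74) and Mylk (1.85) were, as were 16.3% of all genes by at least 1 log2.

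Fibroblasts were not uniform. PDGFRAhi FB, named from Pdgfra, Sox6, Bmp and other markers, were the fibroblast subset with the highest summed contractile genes in the SI graft (6845 CPM) and came after 1 other cluster in the LI graft (3537 CPM). Against the other FB, 4 of the 10 genes were at least 1 log2 higher in the LI and 7 in the SI graft, where 6.07% and 8.39% of all genes were. Acta2 (1.47 and 2.26), Myl9 (1.68 and 2.09), Mylk (1.71 and 1.38) and Myh11 (1.40 and 1.31) were so in both grafts, and Tagln (2.07), Des (1.40) and Smtn (1.06) in the SI graft. Actg2 stood at 0.32 and 0.13, and in the SI graft it ran from -1.11 to 1.32 over the alternatives, with a call upward in 2 of them. Cnn1 was lower than in other FB (-0.84 and -2.19), and Lmod1 was equal in the LI (0.00) and lower in the SI graft (-1.61), from 40 and 9 UMIs. These values depended on the processing. Over the alternatives Cnn1 ran from -1.44 to 0.55 in the LI and from -4.00 to 0.99 in the SI graft, and SI Lmod1 from -2.55 to 1.04. Smtn lost its call in 6 alternatives, with the lowest value at 0.26, and with each cell assigned by marker score 0 genes were called in the LI graft.

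Cd9 and Thbd were used to look within the PDGFRAhi FB, after thinning to 2000 UMIs. In the LI graft Acta2 stood at 1189 CPM in 132 cells with Thbd but not Cd9, at 909 CPM in 148 cells with Cd9 but not Thbd, at 1518 CPM in 85 cells with both, and at 879 CPM in 268 cells with neither. In the SI graft it stood at 2000 CPM (99 cells), 2275 CPM (51), 2348 CPM (79) and 2262 CPM (61) in the same order. Cells with both held the highest value in either graft. Their counting interval in the LI graft (1338 to 1715 CPM) lay above those of the other groups, and in the SI graft it overlapped all of them (2115 to 2600 CPM, against 1808 to 2207 CPM in cells with Thbd only). A cell without a UMI of a marker may still express it.

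Across the fibroblast clusters, the summed level ran from 411 CPM (1245 LI cells led by Myoc and Lpl) to 4132 CPM (371 LI cells led by Cthrc1 and Prg4), and in the SI graft from 479 CPM to the 6845 CPM of PDGFRAhi FB. Immune cells summed to 589 and 472 CPM. The Myoc cluster and 751 LI cells led by Fmo2 (488 CPM) lay under the LI immune cells. The lowest SI fibroblast cluster was close to the SI immune cells. The LI Cthrc1 cluster held Tagln at 2743 CPM and Acta2 at 1020 CPM. Myh11 stood at 11.7 CPM and Mylk at 48.1 CPM there, under the 66.7 and 408 CPM of PDGFRAhi FB of the same graft. Its cells were the deepest of the LI graft (median 14619 UMIs), and the part of depth was not tested. In the SI graft, 460 cells led by Wif1, Inhba and Bmp7 summed to 5120 CPM, with Tagln at 2119 CPM, Acta2 at 1419 CPM and Myh11 at 137 CPM. They were counted among the other FB, with a best subset score of 0.44 where 0.5 was needed. Bmp7 and Bpgm also led the SI PDGFRAhi FB. That subset held 336 cells here, 793 at resolution 0.4 and 884 without doublet removal. Whether the 460 cells joined it there was not tested. Fgfr2 FB, 2064 and 1118 cells, stood at 618 and 549 CPM for Acta2 and at 32.2 and 25.2 CPM for Lmod1, above the 11.8 and 5.01 CPM of Lmod1 in PDGFRAhi FB. Immune cells held Lmod1 at 16.7 and 8.58 CPM, above PDGFRAhi FB in both grafts. In the LI graft their counting interval overlapped that of Fgfr2 FB. Fibroblast clusters with much Tagln and Acta2 were thus of more than 1 kind, with Myh11 and Mylk higher in some than in others.

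**Figure D4:**
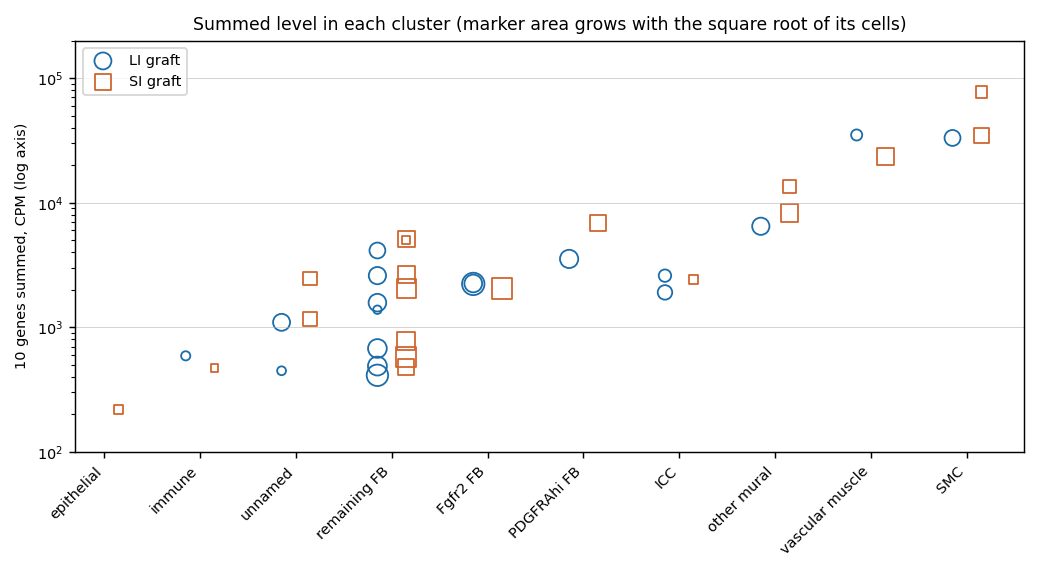
Summed level of the 10 contractile genes (CPM, log axis) in each cluster, by class, with LI clusters as circles and SI clusters as squares whose area grows with the square root of the number of cells. SMC and vascular muscle clusters stood at 23334 to 77828 CPM, other mural clusters at 6470 to 13549 CPM, and fibroblast clusters ran from 411 to 6845 CPM.

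Over the 18 LI and 19 SI clusters, each pair of the 10 genes was positively correlated on the log2 scale (median Pearson r 0.78 and 0.86). The closest pair was Myh11 and Lmod1 in the LI (0.95) and Acta2 and Tagln in the SI graft (0.98), and the loosest was Smtn and Lmod1 in both (0.47 and 0.64). These values describe clusters that share a library and are not replicates.

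Between the grafts, the levels within FB differed by less than 1 log2 for all 10 genes, where 2.04% of all genes were at least 1 log2 higher and 1.76% lower in the LI graft. Tagln was higher in LI FB (0.45), and the other 9 were lower, from Smtn (-0.12) to Myh11 (-0.90). Over the alternatives Tagln ran from -0.11 to 0.77, Acta2 reached 0.08 and Actg2 0.16, so these directions depended on the processing. Calls appeared there too, in the lower direction, for Myh11 (to -1.88) in 3 alternatives, Cnn1 (to -2.36) in 2, and Actg2 (to -1.49), Lmod1 (to -1.40), Mylk (to -1.11) and Myl9 (to -1.06) in 1 each. Within PDGFRAhi FB, 3 genes were at least 1 log2 lower in the LI graft, where 5.81% of all genes were: Des (-1.45), Tagln (-1.04) and Acta2 (-1.02), so Tagln stood opposite to its value over all FB. Lmod1 was higher there (1.09, 0.17 to 2.46, from 9 SI UMIs), where 4.95% of all genes were. Both of these Lmod1 levels lay under those of the immune cells of the same graft. Within LI FB, Tagln was high in the Cthrc1 cluster and in 522 cells led by Ctla2a (1621 CPM), whose median depth was 11326 UMIs, and the part of depth was not tested. In mural cells none was at least 1 log2 higher in the LI graft (1.45% of all genes) and 1, Actg2 (-1.05, -1.20 to -0.90), was lower (1.94%). The Actg2 call was lost in 4 alternatives (up to -0.69), and vascular muscle was 89 of 609 mural cells in the LI and 492 of 1220 in the SI graft. Within vascular muscle 9 of the 10 genes were higher in the LI graft, with Cnn1 called (1.40, where 3.97% of all genes were), Acta2 at 0.74 and Actg2 at 0.45, and none was called lower (10.8% of all genes). Within the other mural cells all 10 were lower in the LI graft, and Actg2 was called (-1.82, where 2.81% of all genes were called lower and 2.73% higher). The mural value thus mixes subsets whose values had opposite signs for 9 of the 10 genes. In other mural cells, however, Myh11 (-0.10, -0.24 to 0.04) and Smtn (-0.24, -0.69 to 0.18) did not differ beyond counting error. SI Myh11 there was 479 CPM in the Ubd cluster and 237 CPM in the rest, against 301 CPM in the LI graft. In SMC none was higher (3.51% of all genes) and 3 were lower (3.62%): Des (-1.99), Actg2 (-1.17) and Smtn, which sat at the threshold (-1.0, -1.20 to -0.82). Cnn1 was just under it (-0.95), and Lmod1 was the only gene of the 10 not lower in LI SMC (0.10, -0.01 to 0.21). With 1 library each, graft, pool of embryos and library cannot be told apart, and which Chromium chemistry was used for each library is not given in the sources used here.

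The make-up of the SMC class also differed between the grafts. SI SMC comprised 306 cells led by Npnt and Hhip and 102 cells led by Pcp4, Ckm and Chrm2, whereas LI SMC were a single cluster led by Fbxl22 and Npnt. The Pcp4 cluster had the highest contractile sum of any cluster, 77828 CPM, against 34872 CPM in the Npnt cluster and 33135 CPM in LI SMC. Against the Npnt cluster, 6 genes were at least 1 log2 higher in it, where 7.04% of all genes were. Des stood at 7232 and 1146 CPM (2.66 higher), Actg2 at 12838 and 2267 CPM (2.50), Smtn at 675 and 151 CPM (2.16) and Cnn1 at 4612 and 1290 CPM (1.84). Mylk (1.25) and Myl9 (1.07) made up the rest, while Lmod1 did not differ beyond counting error (0.14, -0.02 to 0.29). The cells of the Pcp4 cluster were deeper than those of the Npnt cluster (median 7628 and 4739 UMIs). Of 6 striated muscle markers, Ckm (258 against 4.78 CPM) and Tnnt2 (197 against 3.59 CPM) moved with the cluster, and Myl1, Tnnc2 and Myh6 had 0 UMIs in both. The summed striated markers stood at 462 and 11.4 CPM, and the summed fibroblast markers at 5500 and 21382 CPM. The part of depth and of these cell types in the differences was not tested.

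Between LI SMC and the SI Npnt cluster alone, none of the 10 genes was at least 1 log2 higher (3.55% of all genes) or lower (3.21%). Des had the widest difference (-0.51, -0.61 to -0.41), and Actg2 turned to 0.19 and Smtn to 0.12. This comparison leaves out, from the SI graft only, the cluster with the higher levels, which in itself lowers the SI values. A Pcp4 cluster was not separated in the LI graft at this resolution, so whether such cells were fewer there or were not resolved was not tested.

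**Figure D5:**
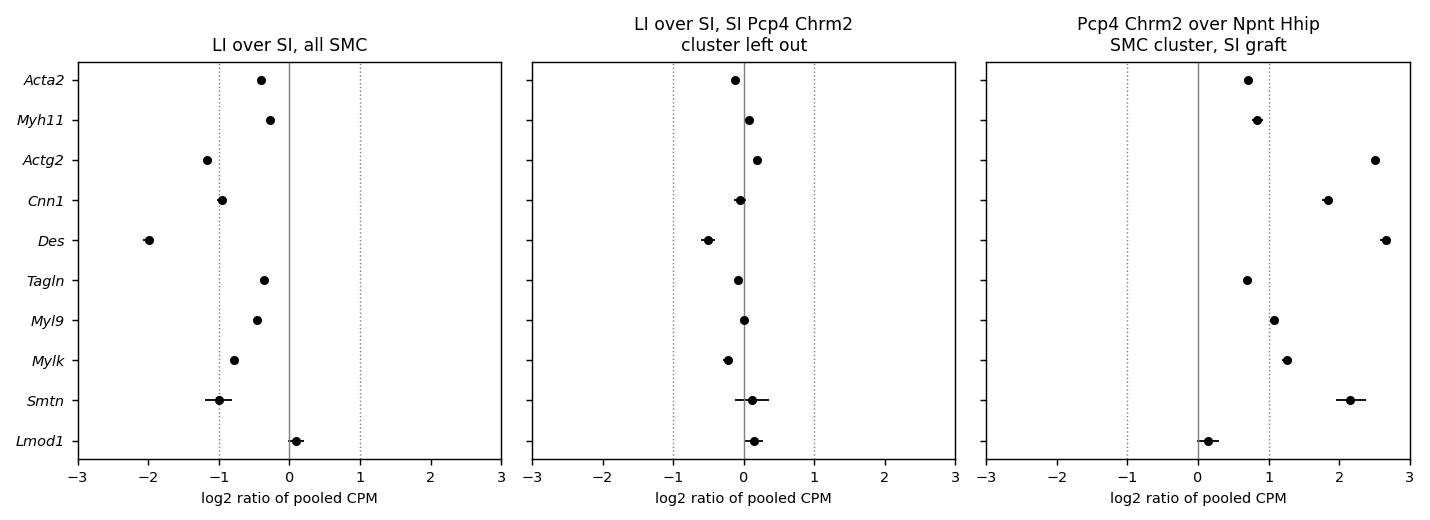
Log2 ratios of pooled CPM of the 10 contractile genes, with 95% counting intervals and dotted lines at a difference of 1, for LI over SI SMC (left), the same without the SI Pcp4 cluster (middle) and the Pcp4 over the Npnt cluster of the SI graft (right). Des (-1.99) and Actg2 (-1.17) lay farthest left in the first panel, all genes lay between -0.51 and 0.19 in the second, and Des (2.66) and Actg2 (2.50) lay farthest right in the third.

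Other genes of the contractile pathway were counted in 6 lists, to be read against the 6.37% and 6.49% of all genes that were at least 1 log2 higher in SMC than in FB and the 8.04% and 8.85% that were lower. Of 11 thin filament and dense body genes, 9 in the LI and 10 in the SI graft were at least 1 log2 higher in SMC than in FB. Tpm2 (tropomyosin 2) stood at 3507 and 5884 CPM in SMC (3.47 and 4.26 higher than in FB), and Pdlim3, a protein of the dense bodies, was 3.17 and 3.76 higher. Cald1 (caldesmon) was 0.90 and 1.64 higher, and Tpm4 did not differ by more than 0.33. Of the 11 genes of myosin light chains and their regulation at 10 CPM or more, 5 were higher in each graft and 1 was lower in the SI graft. Myl6, the essential light chain, was 2.52 and 2.88 higher and Ppp1r12b, a targeting subunit of myosin phosphatase, 2.54 and 2.65 higher. Myl12b, the light chain of nonmuscle cells, differed by -0.30 and -1.24.

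Of the regulators of smooth muscle transcription, 3 of 9 in the LI and 4 of 9 in the SI graft were at least 1 log2 higher in SMC than in FB (6.37% and 6.49% of all genes), and 2 were lower in each (8.04% and 8.85%). Myocd (myocardin) stood at 76.0 and 78.6 CPM in SMC, against 2.96 and 3.31 CPM in FB and 20.9 and 15.9 CPM in mural cells. Mef2c was higher in mural cells (622 and 547 CPM) than in SMC (141 and 115 CPM), with 34.9 and 26.3 CPM in FB. Klf4, which represses smooth muscle genes, stood at 227 and 119 CPM in SMC and at 746 and 729 CPM in FB (-1.71 and -2.60). Gata6 was the other one lower, from 2 and 1 UMIs in SMC.

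Of the calcium handling and potassium channel genes at the minimum, 6 of 8 in the LI and 7 of 9 in the SI graft were higher in SMC. Pln (phospholamban, the brake of the sarcoplasmic calcium pump) stood at 15.6 CPM in LI SMC and 130 CPM in SI SMC, against 118 and 33.0 CPM in mural cells and under 1 CPM in FB. Pln led the LI vascular muscle cluster (89 cells) and was among the leading genes of the SI Pcp4 cluster (102 cells). These pooled values thus mix unlike clusters. Kcnmb1, a subunit of the calcium-activated potassium channel, stood at 43.7 and 55.7 CPM in SMC and 2.03 and 4.77 CPM in FB. The calcium release channel gene Itpr1 was 0.67 higher in both, and the pump gene Atp2a2 differed by 0.04 and 0.23. Of the receptors of contraction, 3 of 5 and 2 of 6 were higher in SMC (6.37% and 6.49% of all genes), and 1 was lower in the SI graft (8.85%). Htr2b, a serotonin receptor, stood at 16.7 and 18.6 CPM in SMC and 2.29 and 0.186 CPM in FB. The receptors differed between the muscle classes: Ptger3, a prostaglandin E receptor, stood at 63.6 and 39.1 CPM in SMC and 1.44 and 0.623 CPM in mural cells, whereas Ednra, the endothelin A receptor, stood at 41.0 and 23.3 CPM in SMC and 267 and 160 CPM in mural cells. Agtr1a, the angiotensin receptor, was higher in mural cells too (44.4 and 51.1 CPM, against 12.9 and 3.56 CPM in SMC).

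Of 6 other actin and myosin heavy chain genes, 2 in the LI and 3 in the SI graft were higher in SMC. The cardiac actin gene Actc1 stood at 118 and 46.2 CPM in SMC and under 1 CPM in FB, and the skeletal actin gene Acta1 at 15.1 and 20.9 CPM, with reads that may be shared among the actins. Of the nonmuscle myosins, Myh9 was 0.38 and 0.30 higher in SMC, and Myh10 stood at 124 and 62.4 CPM in SMC, 73.0 and 82.3 CPM in FB and 6.85 and 8.87 CPM in mural cells.

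The genes whose levels were most like the mean of the 10 over 7 classes of each graft were sought among 4252 genes, with the mean Pearson r of both grafts as the measure. Tpm2 (0.99) and Tpm1 (0.99), the tropomyosins, came first, followed by Speg, a kinase related to myosin light chain kinase (0.98), Ehbp1l1 (0.98) and Flna, the actin crosslinker filamin A (0.98). Jph2, Myl6, Hspb6, Lpp and Tspan2 completed the first 10 (0.97 to 0.95). Of the contractile genes themselves, Myh11 was closest to the mean (0.98) and Smtn farthest from it (0.89). Each of the 10 is part of that mean, so their values cannot be set beside those of the other genes. The classes of a graft share a library, and these values are a description.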

How the data were processed

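Single cells of 2 libraries were studied, 1 from an LI graft and 1 from an SI graft. The authors deposited UMI counts per gene and barcode, made with Cell Ranger 3.1.0 on mm10 and analysed by them with Seurat 3, per the submitters' processing notes. The counts were not normalised. No deposited cell type labels were used.

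Cells with at least 500 genes and at most 10% mt- UMIs were kept. The doublet caller of scanpy 1.11.5 marked 0 and 1 barcodes at its own threshold and was taken not to have worked there, so the 1071 and 742 barcodes with the highest scores (0.8% per 1000 barcodes) were left out. Each library was clustered alone in Seurat 5.3.0 under R 4.3.3, with 2000 variable genes, 30 components and resolution 0.8. The 10 genes and 59 genes of their pathway were kept out of the variable genes. Clusters were named from markers, and part of the naming thresholds was fixed with the clusters in view. Clusters that met no rule stayed unnamed (524 and 453 cells).

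Levels are UMIs of a gene summed over the cells of a class, scaled to 1e6 UMIs of that class (CPM). A class level thus depends on the mix of cells in it. Log2 differences used a pseudocount of 1 CPM, which understates changes of low genes, and their intervals are exact binomial intervals of the counts without it. A gene was called at a log2 difference of at least 1 if it reached 10 CPM in a class. Shares of cells were taken after thinning to 2000 UMIs, with exact binomial intervals. A difference was called on size alone, since 1 library per group allows no test and no p-value. PCR and capture error are not covered by the intervals. Promoter windows and sequences came from RefSeq (GRCm38.p6), and gene positions from the GENCODE annotation of GRCm38. Genes named from the pathway lists were the 2 with the highest and the 2 with the lowest ratio of SMC over FB per list, of which 1 is not reported here. edgeR 4.0.16 gave TMM factors as an alternative. The calling code was tested on simulated data. The 10 genes, the lists and the subsets were chosen with earlier results of these data known. In all, 18 alternatives were tried, of which 14 were planned.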

Additional observations from a re-analysis of the deposited data

Results flagged for a closer look

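For 4 genes, the difference between visceral SMC and vascular muscle pointed in opposite directions in the grafts. On the log2 scale, SMC over vascular muscle, Acta2 was at -0.39 in the LI and 0.75 in the SI graft. Tagln was at -0.29 and 0.75, and Myh11 at -0.11 and 0.53, where the LI interval of Myh11 (-0.20 to -0.0049) almost reached no difference. Des was at -0.61 and 1.27. The difference between the grafts was not tested, since each graft is 1 library. Vascular muscle comprised 89 cells in the LI and 492 in the SI graft. The LI cluster was not separated at resolution 0.4, with the looser cell filter or without doublet removal. With the SI Npnt cluster alone in place of all SI SMC, Acta2 was at 0.47, Tagln at 0.48, Myh11 at 0.19 and Des at -0.21, so that Des then pointed the same way in both grafts.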

How the results depend on the processing

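Alternatives changed the cell filter, doublet removal, clustering, class assignment, pooling, pseudocount, minimum level and thinning. The counts of genes called kept within 1.5 times the reported ones in 155 cases and moved in 22, and of the single log2 values 1321 kept direction and call, 59 lost the call, 44 gained it, 23 were reversed with a call on either side, and 43 changed sign with no call. The summed level of the 10 genes left its counting interval in 48 of 64 cases, for instance by score, where SMC fell to 1.18% (LI) and 2.55% (SI). With no minimum level, the share of all genes past the fold moved in 32 of 36 cases, for instance to 5.03% (LI SMC over FB) and 24.5% (LI SMC over vascular muscle). The count of SMC over FB was 10 in both grafts under each alternative, and that of mural cells over FB was 9 except 8 (SI) at resolution 1.6 and 6 (LI) and 8 (SI) with the vascular muscle left out. Higher in ICC than FB in the SI graft were 10 genes with at least 1000 genes per cell, 10 at resolution 1.6, 3 with both libraries clustered together and 10 with each cell assigned by marker score, which also gave 6 in the LI graft. At resolution 1.6 a cluster of 36 cells led by Pln, Rgs9 and Hand1 joined the SI ICC, and 183 cells with Cnn1 and Npnt among their leading genes joined the FB. There PDGFRAhi FB held 3 genes in the SI graft, and the SI graft was higher for 6 genes in FB and 5 in SMC. With the marker score PDGFRAhi FB held 0 genes in the LI graft, SMC over mural cells gave 4 (LI) and 5 (SI), and the SI graft was higher for 3 genes in mural cells and 6 in SMC. With vascular muscle in place of all mural cells, SMC were higher for 2 (LI) and 5 (SI). Actg2 in mural cells, the gene higher in the SI graft, was no longer called without doublet removal, with joint clustering or with the mean of per-cell CPM (0 genes each), nor by score, where 3 other genes were, and the mean of per-cell CPM gave 1 gene in SMC. Without the Pcp4 cluster 0 genes were higher in SI SMC. In FB, 1 gene was higher in the SI graft with no genes kept out and 2 with joint clustering.

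Reversed values, in log2, were in SI ICC over FB Acta2 (2.36 with the strict filter, 1.28 at resolution 1.6, 2.70 by score), Myh11 (3.57, 2.10 and 3.17) and Tagln (2.26, 1.12 and 2.35 in that order), Actg2 in LI ICC over FB (-0.31 at resolution 0.4, -0.13 with joint clustering, -0.058 without the Lcn2 cluster), and in SI PDGFRAhi FB over other FB Actg2 (-1.11 at resolution 1.6), Cnn1 (0.10 strict, 0.99 by score) and Lmod1 (0.67 without doublet removal, 1.04 at resolution 0.4, 0.35 by score). LI over SI SMC turned to 0.19 for Actg2 and 0.12 for Smtn without the Pcp4 cluster, and LI SMC over vascular muscle gave -0.39 for Acta2, -0.11 for Myh11 and -0.29 for Tagln. The cause was not tested beyond the cells each setting moved. Depth set the share of cells with at least 5 genes. Thinned to 1000 UMIs and unthinned, it was 1.35% and 13.4% in LI FB, 2.83% and 20.8% in SI FB, 3.07% and 27.8% in LI PDGFRAhi FB, 8.26% and 54.5% in SI PDGFRAhi FB, 26.8% and 55.8% in LI mural cells, 40.3% and 73.3% in SI mural cells, 79.9% and 96.6% in LI SMC, 87.0% and 96.8% in SI SMC, 1.76% and 13.8% in LI ICC, and 0% and 25% in SI ICC. No paired analysis was possible because each graft is 1 library.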
